A study of Mus musculus with 8 samples.

Results

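The regions described here are stretches of the mouse genome listed as marked by H4K12la in every library from 5XFAD mice and in no library from wild-type (WT) mice. Peaks of all 8 deposited lists were merged where they overlapped by 1 base or more, which gave 73400 merged regions. Of these, 220 (0.300% of all regions) held a peak from all 4 5XFAD lists and from none of the 4 WT lists. The regions were chosen by the presence or absence of a peak in each of the 8 lists, so the difference between genotypes is a description and carries no test.

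The 8 CUT&Tag libraries form 4 groups of 2: 5XFAD microglia, 5XFAD total brain cells, WT microglia and WT total brain cells. Mice were perfused with saline, and the brain without cerebellum was dissociated and cleared of myelin. Total cells are this suspension, and microglia, the tissue macrophages of the brain, were taken from it with CD11b beads. 5XFAD mice model amyloid deposition of Alzheimer disease through mutated human transgenes driven by the regulatory sequence of the mouse Thy1 gene, which is active mainly in neurons. The WT mice carry no transgene. Age, sex and the number of animals per library are not given in the labels, and neither is whether replicates came from separate animals, so the spread between libraries may be technical.

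Histone lactylation is the attachment of a lactyl group, derived from lactate, to lysines of histones, and it is found mostly at active chromatin. H4K12la is this mark on lysine 12 of histone H4, and in microglia it has been linked to glycolytic metabolism. In CUT&Tag an antibody brings a transposase to the mark, and the DNA beside it is cut, tagged and sequenced. Microglia in amyloid models turn to a disease-associated state with high lysosomal, lipid and phagocytic gene activity.

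A promoter window of a protein-coding or noncoding gene was overlapped by 28 of the 220 regions (12.7%). The share was 12.1% of all merged regions and 49.1% of regions listed in all 8 libraries. Shown here are the annotated promoters within 2 kb of the strongest regions, with 1 CpG-rich promoter for contrast. The promoter annotation lacked Thy1, so the promoter of that gene could not be shown, although a region covered the start of the gene. They are RefSeq promoter windows on GRCm38.p6, from 250 bases before a transcription start to 50 bases after it, written 5′ to 3′ on the strand of the gene. Capitals mark CpG dinucleotides, the sites of DNA methylation. Gm39323 is a long noncoding RNA gene beside Thy1, and its window (chr9:44042135-44042434, minus strand) lay under the first of the 4 Thy1 regions described below. Tank encodes a scaffold protein of NF-kappa-B and interferon signalling, and a region overlapped its window (chr2:61578307-61578606, plus strand). Gm52116 is a long noncoding RNA gene whose window (chr14:50836145-50836444, plus strand) lay 1638 bp from a region in Tep1. Mfap3 encodes a microfibril-associated protein, and its window (chr11:57518415-57518714, plus strand) was chosen after its values were seen, as the overlapped window with the most CpGs.
Gm39323: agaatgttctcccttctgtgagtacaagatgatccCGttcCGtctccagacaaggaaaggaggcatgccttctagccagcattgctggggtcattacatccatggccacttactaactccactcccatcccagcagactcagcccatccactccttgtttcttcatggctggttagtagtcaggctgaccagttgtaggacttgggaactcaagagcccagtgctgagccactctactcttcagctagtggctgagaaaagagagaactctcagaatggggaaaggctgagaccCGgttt
Tank: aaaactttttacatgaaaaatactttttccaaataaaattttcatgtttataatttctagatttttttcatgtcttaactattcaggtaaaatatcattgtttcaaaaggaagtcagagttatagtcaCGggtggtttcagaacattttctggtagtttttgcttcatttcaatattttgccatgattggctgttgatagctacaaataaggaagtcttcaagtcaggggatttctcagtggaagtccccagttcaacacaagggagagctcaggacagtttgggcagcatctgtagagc
Gm52116: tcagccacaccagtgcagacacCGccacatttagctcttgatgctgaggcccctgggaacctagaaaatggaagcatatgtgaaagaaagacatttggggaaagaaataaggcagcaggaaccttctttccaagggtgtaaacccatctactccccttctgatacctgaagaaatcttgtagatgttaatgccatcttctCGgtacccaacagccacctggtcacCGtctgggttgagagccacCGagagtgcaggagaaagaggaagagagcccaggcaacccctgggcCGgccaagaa
Mfap3: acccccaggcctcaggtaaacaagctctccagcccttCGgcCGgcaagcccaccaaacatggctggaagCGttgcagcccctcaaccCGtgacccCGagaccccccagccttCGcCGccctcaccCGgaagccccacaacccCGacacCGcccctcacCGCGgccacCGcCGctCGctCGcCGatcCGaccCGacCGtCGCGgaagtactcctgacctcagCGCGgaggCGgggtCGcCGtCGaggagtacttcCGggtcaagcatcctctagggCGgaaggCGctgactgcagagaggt
The Tank window held 1 CpG, with an observed to expected CpG ratio of 0.112 (the CpGs present over those its C and G content would give), and it contained CCAAT and TATAAA when both strands were searched. The Mfap3 window held 31 CpGs with a ratio of 0.911. The Gm39323 window held 3 CpGs and the Gm52116 window 5.

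The lists differed in length, which bears on every count of presence and absence. They held 29947 and 41783 peaks in 5XFAD microglia and 32967 and 22807 in 5XFAD total cells, against 22300 and 33500 in WT microglia and 25271 and 22543 in WT total cells. Summed over libraries there were 127504 peaks in 5XFAD and 103614 in WT. Read depth is unknown, so the absence of a peak means only that none was listed. With every list reduced to its 22300 highest-scoring peaks, 143 regions were 5XFAD-only and 39 were WT-only, and 87 of the 143 (60.8%) overlapped 87 of the 220 (39.5%). Of 20 microglial marker genes, 17 and 19 had a peak within 2 kb of a gene end in 5XFAD microglia and 10 and 6 in 5XFAD total cells, against 16 and 19 in WT microglia and 4 and 6 in WT total cells. In total cells, more cells of a type and more mark per cell cannot be told apart. Of 19 neuronal markers, 1 to 3 had such a peak in every library.

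Peaks shared by all 4 libraries of a genotype and absent from the other were few in both directions, and more numerous for 5XFAD. A peak from all 4 5XFAD libraries was present in 10904 regions, and the 220 regions without any WT peak made up 2.02% of them. In the opposite direction, 6622 regions had a peak from all 4 WT libraries, and 18 of these (0.272%) had none from 5XFAD; they were 0.0245% of all merged regions. Regions of all 8 libraries numbered 5288. Within microglia alone, 4482 regions were listed in both 5XFAD libraries and neither WT library, and the 220 were 4.91% of them. Within total cells alone, 4018 regions had that pattern, and the 220 were 5.48% of them. The opposite pattern, both WT libraries and neither 5XFAD library, held for 904 of the 48948 regions with a peak in microglia and 2426 of the 50445 regions with a peak in total cells.

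**Figure D1:**
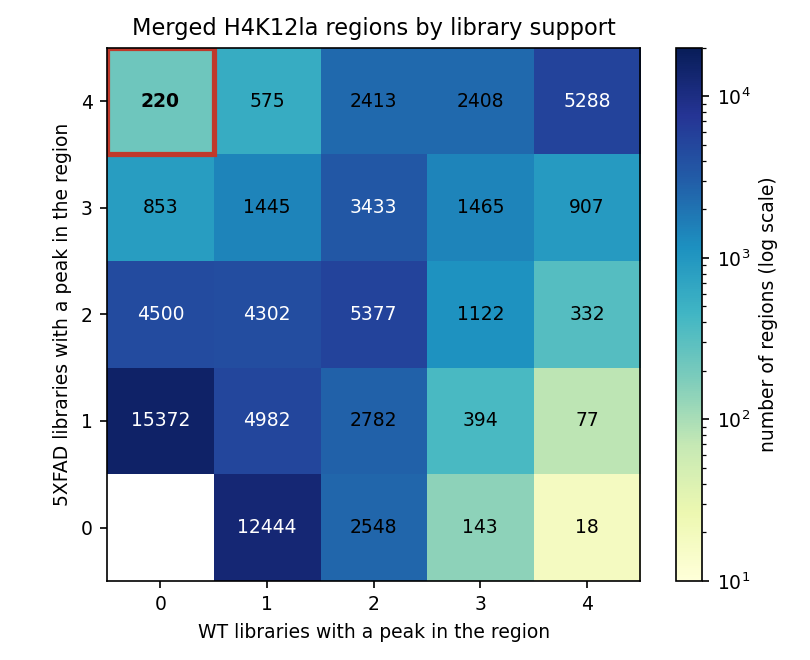
Number of merged regions by how many of the 4 5XFAD libraries and how many of the 4 WT libraries listed a peak there. The corner with 4 5XFAD and 0 WT libraries holds 220 regions, and the opposite corner holds 18.

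Neighbours of the rule show how closely the regions border on others. One WT library added a peak in 575 regions listed in all 4 5XFAD libraries, and that library was the second WT microglia library, the longest WT list, in 389 of them. It was the first WT microglia library in 40, the first WT total-cell library in 74 and the second in 72. Conversely, 853 regions had no WT peak and lacked a peak in a single 5XFAD library. The missing library was the second 5XFAD total-cell library, the shortest 5XFAD list, in 450 of these. Just outside the rule, a region at Mllt10 had a peak in all 4 5XFAD lists and a WT microglia peak of score 22 at percentile 0.287 of its list. The other regions of the 3 nearest, on chromosome 14 and at Crebzf, had WT microglia peaks of score 24 and 26. Just inside it, with the lowest mean percentiles, were regions at Zbtb18 (15.1), encoding a transcriptional repressor, Spint1 (13.8), encoding a protease inhibitor, and Tbxas1 (11.3), encoding thromboxane synthase. Of the 220, 19 had a WT peak within 1000 bp and 82 within 5000 bp, while 87 had none within 10000 bp and 16 none within 50000 bp.

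The score printed below is the authors' own value per peak, with a lowest value of 20 in every list, and it served only to rank peaks within a list. A percentile gives the share of the peaks of the same list that score lower, with ties split evenly. A score of 50 stood at percentile 22.8 in the first 5XFAD microglia list and at 43.0 and 46.6 in the 5XFAD total-cell lists. That threshold therefore removed a larger share of these total-cell lists. Lists of different lengths are not comparable by rank as a change in level. The median score was 79 and 98 in the 5XFAD microglia lists and 54 and 52 in the 5XFAD total-cell lists. A higher score in microglia is therefore not by itself a higher rank.

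Thy1, which encodes a surface glycoprotein of neurons, held 4 of the 6 regions with the highest mean percentile. The gene lies at chr9:44043384-44048579 on GRCm38, the build of all coordinates given here. From left to right, the regions were chr9:44042131-44042554, chr9:44042832-44044235, chr9:44044473-44045834 and chr9:44047937-44050046. The gaps between them were 277, 237 and 2102 bp, and the stretch from first to last base was 7916 bp. It began 1253 bp before the start of the gene and ended 1467 bp after its end. No WT list held a peak within it, and the nearest WT peaks were 47918 bp before and 17039 bp after.

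At Thy1, peaks stood far closer to the top of the list in both total-cell libraries than in both microglia libraries. The first region scored 125 and 132 in 5XFAD microglia and 740 and 720 in 5XFAD total cells. The second scored 123 and 216 in microglia and 574 and 495 in total cells, and the third 100 and 175 in microglia and 497 and 391 in total cells. In both total-cell libraries all 4 regions were among the highest-ranked peaks of the list. The fourth, at the far end of the gene, scored 243 and 353 in microglia and 1204 and 868 in total cells. In the first total-cell library, of 32967 peaks, the 4 regions ranked 15, 22, 28 and 5 from the top. In the second, of 22807 peaks, they ranked 11, 22, 33 and 7. In the microglia libraries the ranks were 7759, 7961, 10977 and 1815 of 29947, and 15011, 7402, 10338 and 2695 of 41783. The mean percentile of the fourth region was 96.8 ± 3.62 (SD, n = 4 libraries). The third region began at the same base, 44044473, in all 4 lists, and both total-cell peaks ended at 44045834. Because Thy1 regulatory sequence is part of the transgenes, reads from transgene copies and from the endogenous Thy1 gene cannot be told apart. The numbers of peaks at App were 9 and 11 in 5XFAD microglia and 14 and 5 in 5XFAD total cells, against 9 and 9 in WT microglia and 11 and 6 in WT total cells, and none of the 220 regions lay there.

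**Figure D2:**
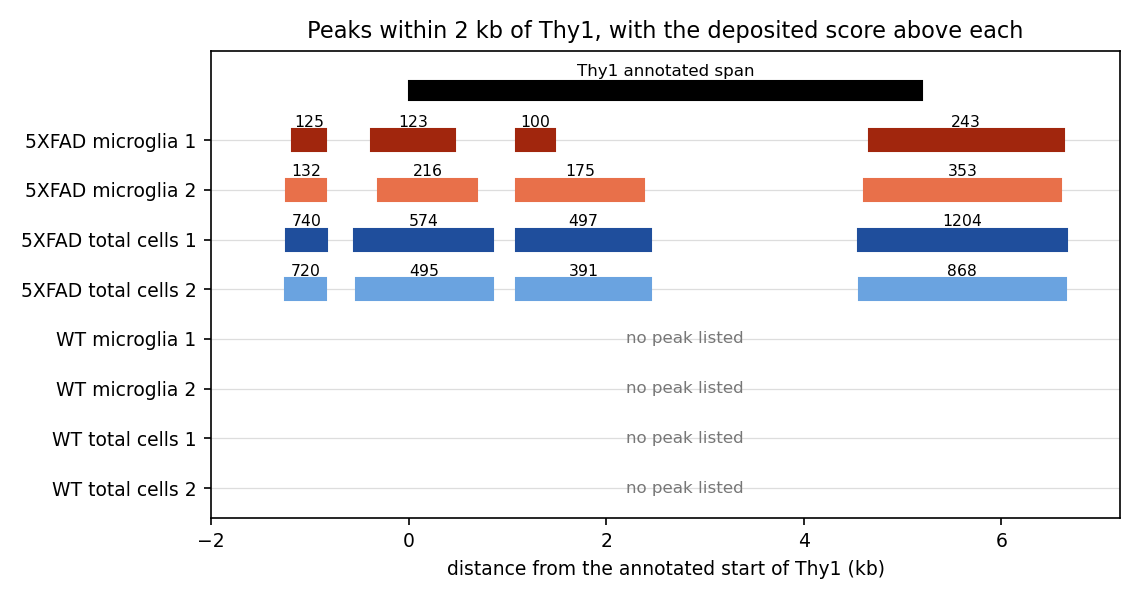
Peaks listed around Thy1 in each of the 8 libraries, by distance from the gene start in kb, with the gene drawn as a bar. Each of the 4 5XFAD libraries lists 4 peaks at or beside the gene, and the 4 WT libraries list none there.

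Of the 8 other regions among the 12 with the highest mean percentile, 7 lay inside or beside genes of varied function. The region outside genes at chr14:99009770-99011226, 23318 bp from Mzt1, which encodes a part of the gamma-tubulin complex, scored 236 and 417 in 5XFAD microglia and 113 and 126 in 5XFAD total cells. Its mean percentile was 92.5 ± 3.2 (SD, n = 4 libraries). A region in Umad1 (chr6:8412743-8413251) scored 192, 264, 154 and 93 in the 4 libraries in the same order, with a mean percentile of 88.7. The region at the Tank promoter (chr2:61578553-61579000) scored 144 and 193 in microglia and 95 and 88 in total cells, and its percentiles were the most even of these, between 78.7 and 82.4. Both preparations placed it in the upper part of their lists.

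A region in Ago3 (chr4:126412527-126413195), which encodes an Argonaute protein that binds small RNAs, scored 185 and 201 in microglia and 111 and 64 in total cells. A region in Tep1 (chr14:50833788-50834757), encoding a telomerase-associated component of vault particles, scored 172 and 234 in microglia and 58 and 124 in total cells. A region at Zfand2a (chr5:139478765-139479870), which encodes a stress-inducible zinc finger protein, scored 195 and 295 in microglia and 68 and 71 in total cells. The region at Dkk2 (chr3:132102729-132103830), encoding a Wnt antagonist, scored 95 and 199 in microglia and 143 and 80 in total cells. A region at the ends of 2 neighbouring genes (chr11:98809320-98809815), Casc3, which encodes a core factor of the exon junction complex, and Msl1, encoding a scaffold of a histone acetylation complex, scored 88 and 155 in microglia and 123 and 126 in total cells. Mean percentiles of these 5 regions lay between 77.5 and 80.0.

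**Figure D3:**
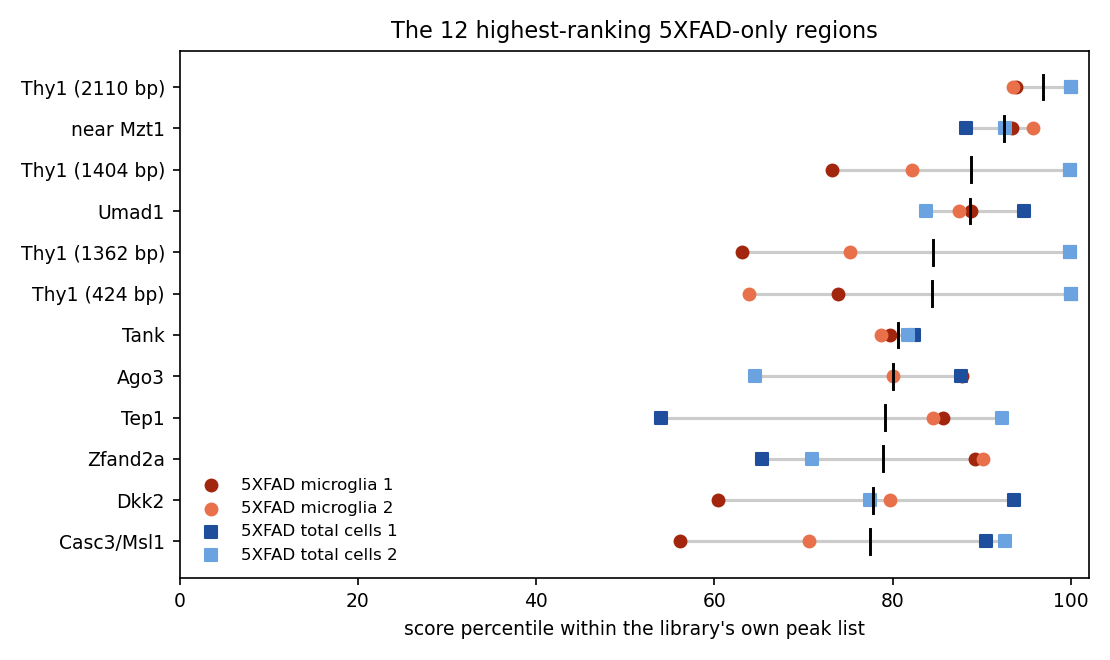
Score percentile in each of the 4 5XFAD libraries for the 12 regions with the highest mean percentile, 1 point per library. The 4 Thy1 regions have total-cell points at the top of the scale and microglia points below them, and the Tank points lie between 78.7 and 82.4.

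Several genes held more than 1 region. Besides Thy1 with 4, they were Adgrl2, Cd44, Elmo1, Eps8, Mdfic, Nrp1 and Serpinb1c with 2 each, between 21253 and 120861 bp apart. These 7 genes are long, from 59.4 kb for Serpinb1c to 518 kb for Elmo1, against a median of 17.2 kb for all protein-coding genes. Whether gene length accounts for the second region was not tested. Cd44, which encodes a receptor for hyaluronan, had a region inside the gene (chr2:102815276-102816057, scores 95 and 158 in microglia, 39 and 52 in total cells) and another at its promoter (chr2:102900669-102901704, 40 and 110 in microglia, 42 and 71 in total cells). Elmo1, encoding an adaptor that activates Rac in engulfment of dying cells, had regions at chr13:20171832-20172536, scoring 55, 80, 73 and 62, and chr13:20250433-20251213, scoring 31, 39, 48 and 60, in the 4 libraries in the order used above. Eps8, an actin-binding signalling protein, had regions at chr6:137587767-137589471, scoring 208, 197, 47 and 53, and chr6:137629842-137631897, scoring 229, 377, 46 and 38, and both stood higher in the microglia lists. In the first of these Eps8 regions no base was covered by all 4 lists. Nrp1, a receptor for semaphorins and vascular growth factor, had regions at chr8:128451700-128452404, scoring 77, 116, 42 and 39, and chr8:128382235-128383173, scoring 27, 105, 44 and 39, and a WT peak lay 57 bp from the second. Adgrl2, an adhesion G protein-coupled receptor, had regions scoring 104, 101, 79 and 69, and 39, 72, 42 and 51. In percentile the first of these stood higher in both total-cell lists (73.9 and 69.3) than in both microglia lists (65.1 and 51.7). Serpinb1c, of the serine protease inhibitor family, had regions scoring 118, 173, 100 and 66, and 67, 111, 57 and 55. Mdfic had regions scoring 93, 70, 59 and 76, and 46, 83, 35 and 25. Of these 14 regions in 7 genes, 12 were no longer 5XFAD-only with the higher-scoring 50% of peaks, 9 with a score of at least 50 and 9 with equal numbers of peaks per list.

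The widest region, 2721 bp in Cdkal1 (chr13:29306052-29308772), which encodes a tRNA-modifying enzyme, scored 112 and 199 in microglia and 72 and 99 in total cells. The next widest spanned 2615 bp at a long noncoding RNA gene, 4930556M19Rik (chr15:10769123-10771737), and scored 146 and 193 in microglia and 100 and 49 in total cells. A region of 2496 bp at Crybb3, a lens crystallin gene, had no base covered by all 4 lists and scored 80 and 174 in microglia and 40 and 48 in total cells. Regions of 2343 bp in Lrguk and of 2187 bp in Etl4 completed the 5 widest. The Lrguk region (chr6:34064928-34067270) scored 145 and 204 in microglia and 55 and 46 in total cells, and the Etl4 region (chr2:20519419-20521605) 104 and 214 in microglia and 57 and 68 in total cells. The 3 regions farthest from any protein-coding gene lay 581342 bp from Plxna2, 510207 bp from Tbl1xr1 and 310942 bp from Ptprc. The Plxna2 one (chr1:194037685-194038449) scored 62 and 173 in microglia and 73 and 54 in total cells. The Tbl1xr1 one (chr3:21564315-21566046) scored 72 and 135 in microglia and 65 and 36 in total cells, and the Ptprc one (chr1:137751504-137751917) 55 and 101 in microglia and 72 and 49 in total cells.

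The gene lists met regions about as seldom as genes at large. Of 21887 protein-coding genes, 57 (0.260%) had a region within 2 kb of a gene end, and 179 (0.818%) had one in the gene or within 2 kb of it. For the 18 regions of the opposite pattern these were 9 genes (0.0411%) and 18 genes (0.0822%). Across 11 lists with 201 distinct matched genes, 1 gene (0.498%) had a region in or within 2 kb of it, a share near that of all protein-coding genes. A count of 0 in a list of 12 to 24 genes is likewise near the background and says nothing particular of that list. That gene was Lyz2, which encodes the lysozyme of macrophages and belongs to the disease-associated microglia list of 24 genes. Its region (chr10:117277523-117278545) scored 140 and 279 in microglia and 86 and 47 in total cells, at percentiles 78.6, 88.9, 78.1 and 40.8. The second total-cell library placed it low, and the mean percentile was 71.6 ± 21.1 (SD, n = 4 libraries, 2 per preparation). It was no longer 5XFAD-only with peaks of a score of at least 50 or with the higher-scoring 50% of peaks. No region lay at any of the 24 genes of glycolysis and lactate, the 20 of homeostatic microglia, the 20 inflammatory genes, the 18 matched interferon genes, the 20 Alzheimer-associated genes, the 16 histone acylation enzymes, the 16 hypoxia genes, the 17 respiratory genes, the 14 ubiquitous genes or the 12 genes of other tissues. Mx2 had no match. None lay at a gene of the marker lists of neurons, microglia, astrocytes, oligodendrocytes, vascular cells or other leukocytes; Thy1 is not on the list of 19 neuronal markers used here.

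The 220 regions lay mostly inside gene bodies and away from gene ends, in shares close to those of all merged regions. No test was made, since the set was chosen by its peaks. For protein-coding genes, a gene end was within 2 kb of 51 of them (23.2%). Of the others, 127 (57.7%) lay in the rest of a gene body and 42 (19.1%) lay outside such genes. Among all merged regions these shares were 23.7%, 55.9% and 20.4%. In regions of all 8 libraries they were 58.0%, 30.6% and 11.4%. The gene-end share was 22.6% in regions of 3 5XFAD libraries and no WT library. It was 30.6% in regions of all 4 5XFAD libraries and 1 WT library, and 45.2% in those with 1 or more WT libraries. The 220 regions had a 5′ end of a protein-coding gene within 2 kb in 13.6%, against 16.5% of all merged regions and 48.9% of the regions of all 8 libraries. The median distance to the nearest such 5′ end was 27.1 kb, against 25.7 kb for all merged regions. The promoter annotation behind these values held no protein-coding gene of chromosome 18 and lacked some others, Thy1 among them. Shares can therefore be too low and distances too long. By chromosome, the share of regions that were among the 220 lay between 0.117% on chromosome 18 and 0.403% on chromosome 15 (12 regions), apart from chromosome Y with none, and chromosome 2 held the most, 20. The 127 regions in the rest of a gene body lay in genes with a median length of 119 kb, against 109 kb for all merged regions so placed and 106 kb for those of all 8 libraries.

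**Figure D4:**
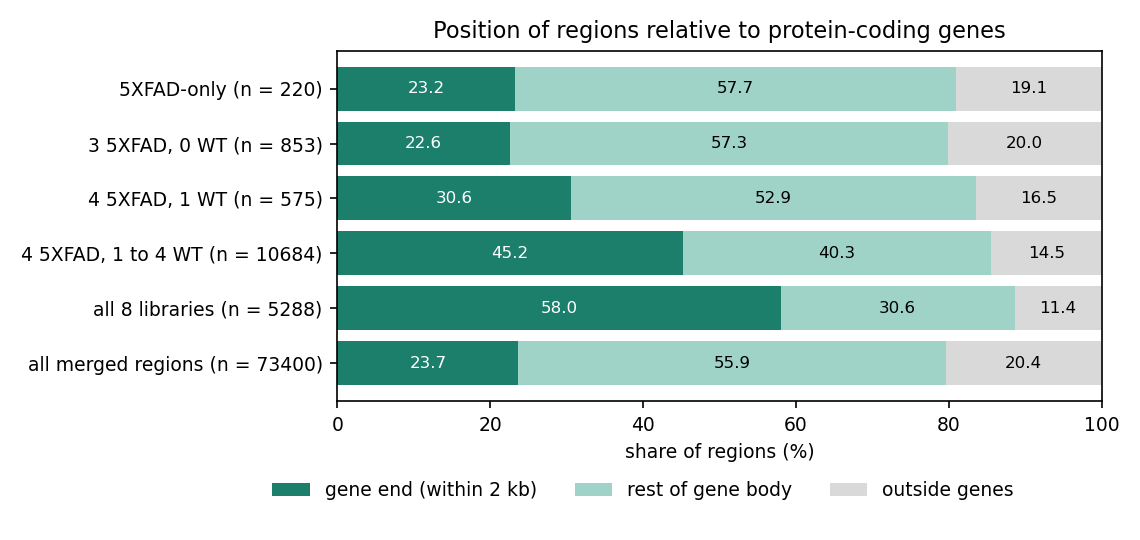
Share of regions at a gene end, in the rest of a gene body and outside protein-coding genes, for the 220 regions and comparison sets. The gene-end share of the 220 is 23.2%, and that of the regions of all 8 libraries is 58.0%.

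The promoters overlapped by the 28 regions included those of Prkacb, the catalytic beta subunit of protein kinase A, Cacna1c, an L-type calcium channel, Rps6ka1, a kinase of the MAP kinase pathway, Nprl3, a subunit of an inhibitor of mTORC1, Atp7a, a copper transporter, and Ndufa1, a subunit of respiratory complex I. The Prkacb region (chr3:146781171-146781513) scored 133 and 205 in microglia and 71 and 84 in total cells. The Cacna1c region (chr6:119196006-119196820) scored 72 and 78 in microglia and 77 and 46 in total cells. Their mean percentiles were 78.6 in microglia and 73.7 in total cells for Prkacb, and 41.8 in microglia and 55.9 in total cells for Cacna1c. The Rps6ka1 region (chr4:133872585-133873223) scored 79 and 155 in microglia and 35 and 42 in total cells. The Mfap3 region (chr11:57518120-57518845), over the CpG-rich promoter printed above, scored 95 and 83 in microglia and 66 and 25 in total cells. The weakest of the 28 in the first microglia library was that of Spint1 (chr2:119237381-119238128), which scored 25 and 46 in microglia and 36 and 37 in total cells. These examples were picked after their values were seen.

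The overlapped promoters held fewer CpGs, at the median, than those reached by regions of all 8 libraries. The 28 regions overlapped 35 promoter windows of 31 genes, with a median of 6 CpGs, against 21 in the 3507 windows overlapped by regions of all 8 libraries and 7 in all 32851 promoters. The share of windows with an observed to expected ratio above 0.6 was 40.0% (14 windows), against 73.9% for regions of all 8 libraries and 35.8% for all promoters. Both strands of each window were searched for short motifs. The CCAAT letters were in 42.9% of the 35 windows, 38.9% of the windows of all 8 libraries and 37.4% of all promoters. The Sp1-type GGGCGG was in 45.7%, 62.1% and 35.7% in the same order, and the ETS-type CCGGAAGT in 14.3%, 10.5% and 3.89%. TATAAA was in 11.4%, 5.05% and 13.6%. TGACGTCA and TGACTCA each occurred in 1 of the 35 windows (2.86%), against 4.79% and 3.17% of the windows of all 8 libraries and 1.79% and 5.2% of all promoters. The longer core motifs of NRF1 and YY1 were in none of the 35; they were in 2.25% and 2.17% of the windows of all 8 libraries and in 0.971% and 0.852% of all promoters. With 35 windows, 1 window is 2.86%, and a match is a description and not a binding site. Some of the 35 windows overlap, so 1 site can be counted more than once, as CCGGAAGT was at Sf3b2. Tmsb15l and Tmsb15b1 share the same window.

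Peaks in the 220 regions ranked near the middle of their lists, below the peaks in regions of all 8 libraries in each 5XFAD library. The median percentile of their peaks was 38.3 and 57.3 in 5XFAD microglia and 50 and 42.5 in 5XFAD total cells. Peaks in regions of all 8 libraries stood at 77.7, 84.7, 86.3 and 79.6 in the same libraries, and peaks in regions of all 4 5XFAD and 1 WT library at 42.5, 57.1, 49.4 and 40.8. Of the 220 regions, 31 were above the 50th percentile in all 4 libraries, 4 above the 75th, and 37 below the 50th in all 4. The same was not counted for other regions of all 4 5XFAD libraries, so these numbers describe the 220 only. Besides the 12 above and Cdkal1, Etl4, Adgrl2 and Serpinb1c, the 31 included regions at Fmn1, encoding an actin-nucleating formin, Smu1, encoding a splicing factor, Xylt1, encoding a xylosyltransferase of proteoglycan synthesis, and Apbb2, encoding an adaptor that binds the amyloid precursor protein. The Fmn1 region (chr2:113459551-113460391) scored 155 and 225 in microglia and 74 and 70 in total cells. The Apbb2 region (chr5:66305786-66306633) scored 148 and 182 in microglia and 86 and 62 in total cells. A region in Fyn, which encodes a Src-family kinase (chr10:39420871-39421872), scored 96 and 116 in microglia and 72 and 57 in total cells. The others lay at Prkacb, Sdk1, Uap1, Tmsb15l, Esrrg and Tmem184b, or outside protein-coding genes, nearest to Ppp1r3c, 9530057J20Rik, Nup160 and Prrc2b. Of the 220, 204 had a base covered by a peak of all 4 lists and 206 had exactly 1 peak in each list.

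Peaks in the 220 regions were wider in both microglia libraries than in both total-cell libraries, as were all peaks of these lists. Peak width had a median of 527 and 738.5 bp in the 5XFAD microglia libraries and of 337 and 286.5 bp in those of 5XFAD total cells. The preparations did not overlap. The medians averaged 633 ± 150 bp in microglia against 312 ± 35.7 bp for total cells (SD, n = 2 each), a difference of 321 bp with an exact two-sided permutation p of 0.333. That is the smallest p that 2 against 2 libraries can give. Over all peaks of the lists, microglia averaged 682 ± 75 bp against 339 ± 38.2 bp for total cells, a difference of 343 bp. In percentile the preparations overlapped, with 47.8 ± 13.4 in microglia and 46.2 ± 5.36 in total cells, a difference of 1.53 and an exact permutation p of 1.0; its sign turned in 6 of the 17 alternatives tried. Region by region, both microglia libraries were above both total-cell libraries in percentile in 61, the reverse held in 48, and the libraries overlapped in 111. The same order was not counted in other regions, so these numbers say nothing particular of the 220.

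**Figure D5:**
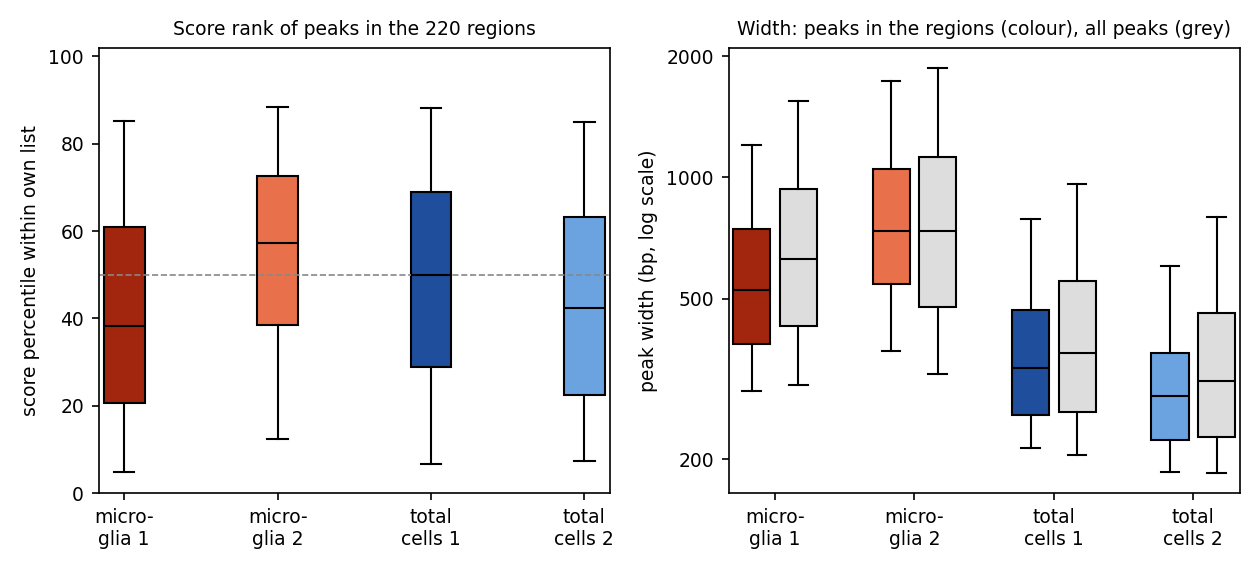
Left, score percentile within its own list of each peak in the 220 regions, by 5XFAD library; right, peak width in bp on a log scale, for those peaks (colour) and for all peaks of the same list (grey). Boxes show the quartiles with the median as a line, whiskers run from the 5th to the 95th percentile, and the microglia medians of width, 527 and 738.5 bp, lie above the total-cell medians, 337 and 286.5 bp.

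Some regions ranked high in one preparation and low in the other. The mean percentiles of the preparations were more than 50 points apart in 10 regions, picked after their values were seen, with microglia higher in 7 and total cells higher in 3. How often such gaps occur in other regions was not counted. The widest gap was at a region outside protein-coding genes, 22827 bp from Csf1 (chr3:107783296-107784049), with 84.7 in 5XFAD microglia and 17.2 in 5XFAD total cells. A region in Acss2, encoding an acetyl-CoA synthetase, had a mean percentile of 85.4 in microglia and 21.8 in total cells. A region in Myo5a, encoding a myosin motor, had 84.4 in microglia and 24.4 in total cells, and one in Sulf2, encoding a heparan sulfatase, had 73.4 in microglia and 17.2 in total cells. At Dao, which encodes D-amino acid oxidase, the values were 59.2 in microglia and 1.13 in total cells. The second Eps8 region had 93.7 in microglia and 30.2 in total cells, and a region in Qpct, encoding glutaminyl cyclase, had 87.8 in microglia and 32.7 in total cells. In the opposite direction, a region in Hip1, encoding a clathrin-binding partner of huntingtin, had 7.23 in microglia and 72.3 in total cells. A region outside genes, 6529 bp from Tmem41b (chr7:109993333-109994193), had 17.4 in microglia and 75 in total cells. A region in Tnks2, encoding tankyrase, had 11.7 in microglia and 65.6 in total cells. Both preparations listed a peak at each of these, since the rule required it.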

How the data were processed

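H4K12la CUT&Tag peaks were available for 8 libraries, 2 per group, grouped by their titles. Bowtie2, deepTools and fastp 0.19.6 are named, with build GRCm38 (mm10), per the submitters' processing notes. How peaks were called, and against which control, is not given in the sources used here. Each library has 1 list deposited by the authors, with a position and a whole-number score per peak, whose unit is not stated. Starts were taken as counted from 0 and printed from 1. Depth is unknown, so no interval over reads was computed; an exact 95% binomial interval over regions, 17.8% to 29.3% for the gene-end share, served to judge its alternatives. No pair of lists shared more than 193 identical intervals, and each library was counted on its own.

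Regions were merged, counted and annotated with RefSeq GRCm38.p6 gene and promoter tables (21887 protein-coding genes) in Python 3.11.15 with numpy 2.4.6, pandas 2.3.3 and matplotlib 3.10.9, after the merging and overlap steps were tested on simulated data. Location used 2 kb windows around gene ends. Preparations were compared by exact two-sided permutation over libraries. The regions and lists were chosen with earlier results of these data known. Named were the 12 regions with the highest mean percentile, regions at listed genes, the 5 widest, the 3 farthest from genes, genes with 2 or more regions, 3 just inside and 3 just outside the rule, and Thy1, App and Xist as checks; 1 further check gene is not reported here. Xist had no peak in any library. Alternatives changed the merging, score threshold, list length, windows and libraries.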

Additional observations from a re-analysis of the deposited data

Results flagged for a closer look

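Among 40 sets of 4 values examined, 1 held a library far from the others; chance gives about 1 in 20. It was the region at 4930556M19Rik on chromosome 15, where the percentile was 44.6 in the second 5XFAD total-cell library and between 78.7 and 84.3 in the other 3 5XFAD libraries.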

How the results depend on the processing

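The 220 regions became 146 with the higher-scoring 50% of peaks and 143 with equal numbers of peaks per list, and 31 and 87 of the 220 then still overlapped such a region. With a score of at least 50 there were 165, and 62 of the 220 still overlapped one. Leaving out 1 library gave 250 to 671; the count was 422 without the first 5XFAD microglia library, 394 and 671 without the first and second 5XFAD total-cell libraries and 611 without the second WT microglia library. Leaving out a library relaxes the rule by construction. The 18 opposite regions became 6 with a score of at least 50, 4 with the higher-scoring 50% and 39 with equal numbers, and 20 to 105 without 1 library (49 without the second 5XFAD microglia, 52 without the first 5XFAD total-cell, 105 and 32 without the first and second WT microglia, 42 and 35 without the first and second WT total-cell library). Genes with a region at a gene end, 57, became 28 with equal numbers, 179 with bodies plus 2 kb and 33 with 5′ ends only, and 61 to 218 without 1 library (128 without the first 5XFAD microglia, 101 and 164 without the first and second 5XFAD total-cell, 218 without the second WT microglia, 92 and 88 without the first and second WT total-cell library). The gene-end share, 23.2%, was 40.4% with the higher-scoring 50%, 30.9% with 5 kb windows, 80.9% with bodies plus 2 kb, 13.6% with 5′ ends only, and 21.5% to 26.8% without 1 library. The percentile difference between preparations, 1.53, turned to -9.49 with a score of at least 50 and -0.183 with the higher-scoring 50%, and ran from -9.05 to 7.51 without 1 library; the cause was not tested. The width difference kept its direction in all 17 alternatives (195 to 484 bp). Thy1 kept 4 regions except with merging within 500 bp (2) and peak midpoints (3). Of the 38 regions named by rule, 13 were kept in all 16 alternatives to the regions, 11 of them among the 12 highest-ranked. Those 12 were picked for high score percentiles, which by itself favours keeping them in the settings based on score or list length. Most settings without 1 library kept all 220. The other 25 named regions were lost in 1 to 7 alternatives, with 22 lost with the higher-scoring 50%, 18 with a score of at least 50 and 13 with equal numbers. The labels do not say that replicate numbers pair microglia with total cells. With the replicate number as a block, added after seeing the data, the width difference was 321 bp (exact paired permutation p = 0.5, the smallest that 2 pairs allow) and the percentile difference 1.53 (exact p = 1.0, with -11.7 and 14.8 in the 2 pairs). For the counts of regions and genes, no paired analysis was possible because they come from no test. Depth is unknown, so weak peaks may be missed in shorter lists.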
